A study of Mus musculus with 2 samples.

Results

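A set of 10 genes used to grade the maturity of insulin-producing beta cells was followed cell by cell in pancreatic islets of virgin and multiparous mice. It held 3 genes of mature beta cells, Ucn3, Prss53 and Tmem215, and 7 genes that have been tied to immature, progenitor or dedifferentiated beta cells, Cd81, Aldh1a3, Neurog3, Sox9, Pdyn, Cpb2 and Fxyd6. The genes were chosen by symbol, and all 10 were found among the 31053 genes of both count matrices. Each library held islet cells of C57BL/6J female mice with no engineered allele. Mice of the multipara group were mated from 9 weeks of age, gave birth in 3 consecutive pregnancies and gave their islets 3 weeks after the last delivery, and the virgin group was age-matched and never mated. There was 1 library per group, and the number of mice in a library is not given in the labels, so every difference below is between these 2 libraries and has no replicate check. Intervals are exact 95% intervals for counting error only, and no p-value was computed.

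Beta cells acquire full glucose responsiveness after birth, when genes such as Ucn3 and Mafa are switched on and the genes of the endocrine progenitor are silenced. Under prolonged metabolic stress this order can be undone, in that maturity genes are lost and genes of progenitors or of other lineages appear, which is called dedifferentiation. Neurog3 is the transcription factor of endocrine progenitors, Sox9 marks the duct-like progenitor pool before it, and Aldh1a3 is an aldehyde dehydrogenase used as a marker of failing beta cells. Cd81 is a tetraspanin of the cell surface that has been used to mark immature beta cells. Pregnancy places a temporary demand on beta cells, which is the setting in which the 2 libraries were made.

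The virgin library held 94853806 UMIs (unique molecular identifiers, each standing for 1 captured RNA molecule) in 5463 cell barcodes, and the multipara library 82503776 UMIs in 5075. Mitochondrial genes gave at least 10% of UMIs in 17.8% and 30.5% of barcodes, and after the filter of the study and removal of called doublets 4312 virgin and 3356 multipara cells were kept. The libraries shared 7 barcode sequences. A cell was taken as a beta cell when Ins1 and Ins2 together made up at least 20% of its UMIs. This gave 1821 virgin and 1585 multipara cells with median depths of 30317 and 32553 UMIs and 10th percentiles of 7991 and 4663. Of them 16 virgin and 95 multipara cells lay in unnamed clusters. One such cluster, with a median of 1414.5 UMIs, gave 3 virgin and 77 multipara beta cells, which bears on shares of cells with a UMI before thinning. Insulin made up 56.1% and 57.3% of UMIs in the median beta cell, and only 40 virgin and 75 multipara cells of any kind lay between 15% and 25%. Levels are given as CPM, the UMIs of a gene among 1000000 UMIs of the summed cells. As a check of the label, the 6 defining beta cell markers other than Ins1 and Ins2, which the rule used, all had a higher CPM in these cells than in alpha-like cells of the same library, such as Slc2a2 at 279 against 4.14 CPM in the virgin library.

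Some beta cells by this rule also carried other islet hormones. Gcg, Sst, Ppy and Pyy together reached 1% of UMIs in 158 virgin beta cells (8.68%) and 141 multipara beta cells (8.90%), and the remaining 1663 and 1444 cells are called single-hormone beta cells here. Summed markers of other islet cells in beta cells were lower in the multipara library, going from 3182 to 2592 CPM for 8 alpha markers, from 1792 to 1159 for 6 delta markers and from 4031 to 1793 for 6 PP markers. In single-hormone beta cells these sums were 1796 and 1146, 130 and 90.1, and 490 and 398. Every alpha and PP marker was detected in both libraries, and the delta marker Ghsr was at 0 in multipara single-hormone cells. Their part in the results was not tested beyond giving the main results with and without the cells that held a second hormone. Clusters called alpha-like (1064 virgin and 683 multipara cells), delta-like (349 and 304) and PP-like (82 and 88) served for comparison, and a cluster of 320 cells in which 50.3% had at least 2 hormones at 2% of UMIs or more was set apart as mixed-hormone after its values were seen.

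The 250 bases ahead of the transcription start are shown for Ucn3, Prss53 and Tmem215, whose summed UMIs order the cells below. They are also shown for Cd81, which had the lowest correlation with that sum at 20000 UMIs per cell. They are from RefSeq on GRCm38.p6 and read 5′ to 3′ on the strand of the gene. Capitals mark 3 short motifs searched on both strands, the Maf element core TGCTGA, the E-box CATCTG bound by NeuroD1 and Neurog3, and the homeodomain core TAATTA. Ucn3, encoding the peptide urocortin 3, lies on chromosome 13 on the minus strand (chr13:3945350-3945599 for the stretch shown). Prss53, encoding a serine protease, lies on chromosome 7 on the minus strand (chr7:127890971-127891220). Tmem215, encoding a transmembrane protein, lies on chromosome 4 on the plus strand (chr4:40471930-40472179), and Cd81 on chromosome 7 on the plus strand (chr7:143052500-143052749).
Ucn3: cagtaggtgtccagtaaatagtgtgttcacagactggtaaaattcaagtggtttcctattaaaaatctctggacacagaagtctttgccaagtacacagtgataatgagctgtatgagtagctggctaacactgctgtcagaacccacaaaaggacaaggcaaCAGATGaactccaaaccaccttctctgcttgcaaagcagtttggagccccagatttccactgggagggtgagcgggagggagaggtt
Prss53: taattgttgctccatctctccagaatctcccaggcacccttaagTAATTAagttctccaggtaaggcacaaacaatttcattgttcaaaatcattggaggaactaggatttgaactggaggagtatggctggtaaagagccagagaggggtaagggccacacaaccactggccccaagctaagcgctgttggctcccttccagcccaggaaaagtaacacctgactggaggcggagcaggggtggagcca
Tmem215: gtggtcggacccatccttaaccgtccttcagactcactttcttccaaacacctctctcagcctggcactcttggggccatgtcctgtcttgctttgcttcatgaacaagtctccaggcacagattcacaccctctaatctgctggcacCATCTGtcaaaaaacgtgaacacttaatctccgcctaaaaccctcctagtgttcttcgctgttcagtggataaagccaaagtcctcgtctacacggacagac
Cd81: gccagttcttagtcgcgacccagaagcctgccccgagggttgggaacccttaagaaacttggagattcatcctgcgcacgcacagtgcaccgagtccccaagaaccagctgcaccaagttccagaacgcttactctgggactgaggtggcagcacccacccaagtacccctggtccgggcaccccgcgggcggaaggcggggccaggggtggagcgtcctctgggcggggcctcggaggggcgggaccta
The E-box stood once, in 1 of its orientations, ahead of Ucn3 and of Tmem215, the homeodomain core once ahead of Prss53, and none of the 3 motifs ahead of Cd81. Of 32851 promoter windows of the same length, 14.4% held the E-box, 4.84% the homeodomain core and 16.1% the Maf core. A promoter window was found for 8 of the 10 genes, and of the others the Maf core stood only ahead of Pdyn. These matches describe the letters of the windows and nothing about binding.

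All 10 genes are protein coding, and their bodies were located on GRCm38. Ucn3 spans chr13:3940688-3945349, Tmem215 chr4:40472180-40477168, Sox9 chr11:112782224-112787760, Aldh1a3 chr7:66390890-66427517, Pdyn chr2:129686565-129699844 and Fxyd6 chr9:45370185-45396159, none of them overlapping another annotated gene. Prss53 (chr7:127885841-127890970) overlaps Gm21974 on its own strand and Zfp646 on the other, and Cpb2 (chr14:75242287-75283555) overlaps Gm44482 and Gm18147 on its own strand, so reads of these genes could be divided by the counting. Cd81 (chr7:143052739-143067934) and Neurog3 (chr10:62133090-62134763) overlap genes on the opposite strand only, R74862 and Fam241b.

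The 3 maturity genes were present in most beta cells of both libraries and differed little between them. Ucn3 was at 232 CPM in the virgin library (95% interval 228 to 236) and at 251 in the multipara library (247 to 256), and a UMI of it was found in 89.7% and 87.8% of beta cells. Prss53 was at 249.4 CPM (245 to 254) and 293 (288 to 298), with a UMI in 91.6% and 89.7% of cells. Tmem215 was at 126 CPM (123 to 129) and 121 (118 to 124), with a UMI in 85.8% and 83.1% of cells. After thinning every cell to 4500 UMIs, the shares with a UMI were 58.6% and 63.7% for Ucn3, 63.3% and 71.2% for Prss53 and 42.8% and 42.5% for Tmem215. The log2 ratios, multipara over virgin, were 0.11 for Ucn3 (0.08 to 0.15), 0.23 for Prss53 (0.20 to 0.27) and -0.06 for Tmem215 (-0.11 to -0.01). None of these reached 1.5-fold, the size used as a call throughout, and that of Tmem215 turned to 0.04 when libraries were scaled by TMM and to 0.05 with median-of-ratios size factors. Within a library the cells ranged widely. In virgin beta cells Ucn3 ran from 0 UMIs per 10000 in the lowest 10% of cells through a median of 2.11 to 5.002 at the 90th percentile, and in multipara cells from 0 through 2.19 to 4.73.

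The immaturity genes fell into 4 that were readily counted and 3 that were nearly absent. Cd81 was at 41.5 CPM in virgin beta cells (39.8 to 43.3) and at 22.2 in multipara beta cells (20.8 to 23.5), a log2 ratio of -0.91 (-1.01 to -0.80). A UMI of Cd81 was found in 29.0% of virgin and 17.7% of multipara beta cells, and the median beta cell of both libraries had none. Thinned to 4500 UMIs, 14.9% and 7.62% of cells had one. Fxyd6, which encodes a regulator of the sodium pump, was at 92.3 (89.7 to 94.9) and 63.6 (61.3 to 65.9), and 81.9% and 62.4% of cells had a UMI. Its log2 ratio of -0.54 (-0.60 to -0.47) stayed short of 1.5-fold. Cpb2, encoding a carboxypeptidase known from blood clotting, was at 9.76 (8.94 to 10.6) and 6.50 (5.80 to 7.27), a log2 ratio of -0.59 (-0.79 to -0.38).

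Pdyn, the precursor of the opioid peptide dynorphin, went the other way. It was at 23.2 CPM in virgin beta cells (21.9 to 24.5) and at 36.4 in multipara beta cells (34.7 to 38.1), a log2 ratio of 0.65 (0.54 to 0.76). It was carried by few cells, since 17.1% of virgin and 23.7% of multipara beta cells had a UMI (6.22% and 9.02% thinned to 4500 UMIs) against 0.470% and 1.32% of alpha-like cells, and 1 virgin cell alone held 140 of the 1238 virgin UMIs. Without the cell richest in Pdyn in each library the log2 ratio was 0.78.

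Neurog3, Aldh1a3 and Sox9 were close to the limit of counting in beta cells. Neurog3 gave 61 UMIs in 44 virgin beta cells (2.42% of cells) and 12 UMIs in 10 multipara beta cells (0.631%), which is 1.14 against 0.251 CPM and a log2 ratio of -2.19 (-3.22 to -1.28). Aldh1a3 gave 23 UMIs in 14 virgin cells and 21 UMIs in 15 multipara cells. Sox9 gave 11 UMIs in 8 virgin cells and 10 UMIs in 9 multipara cells. Both stayed below the 50 UMIs over the libraries together that a call required, so a difference in them was not detectable at this depth. Most of the Neurog3 and Sox9 UMIs sat in cells with a second hormone, which held 37 of 61 virgin and 8 of 12 multipara Neurog3 UMIs and 9 of 11 and 9 of 10 Sox9 UMIs. Of Aldh1a3 they held 13 of 23 and 3 of 21. The 7 markers of duct cells, where Sox9 is at home, summed to 118 and 109 CPM in beta cells. In both libraries 6 of the 7 were detected, and Cftr was at 0.

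**Figure D1:**
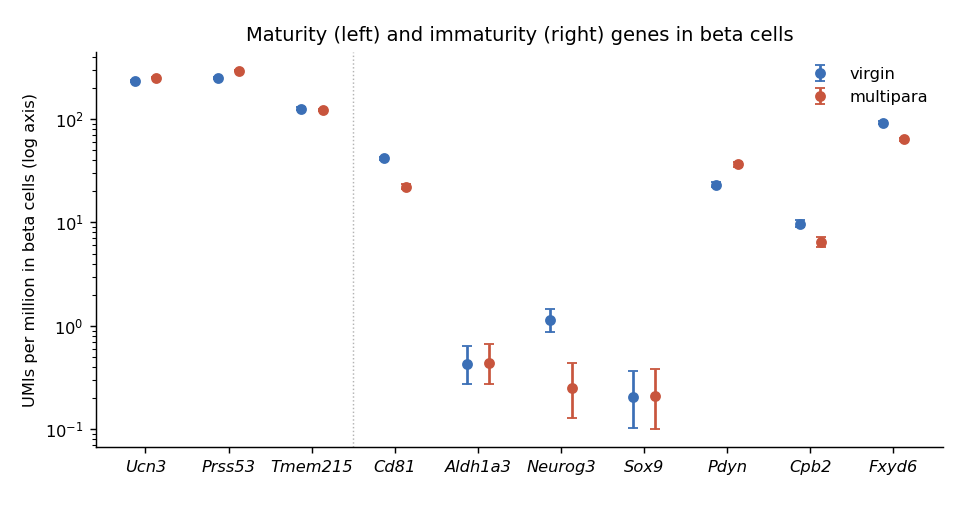
CPM of each gene, summed over beta cells, on a log axis, for the virgin (blue) and multipara (red) library, with exact 95% Poisson intervals. The 3 maturity genes left of the dotted line nearly coincide between libraries, Cd81, Neurog3, Cpb2 and Fxyd6 are lower and Pdyn is higher in the multipara library.

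Of the 8 genes with enough UMIs, 1 (Pdyn) was at least 1.5-fold higher and 3 (Cd81, Neurog3 and Cpb2) at least 1.5-fold lower in the multipara library. Cpb2 lay at the limit, and its log2 ratio of -0.59 came to -0.48 under both TMM and median-of-ratios scaling, which ended its call and left 3 genes. Among all 11946 genes with as many UMIs, 1.88% were higher and 5.49% lower by that much, and the median gene had a log2 ratio of -0.10. In single-hormone beta cells 1 gene was higher (Pdyn, 0.69) and 1 lower (Cd81, -0.85, from 29.4 to 16.3 CPM), against 2.03% and 4.65% of 11749 genes. There Cpb2 came to -0.45 (-0.69 to -0.21) and Fxyd6 to -0.49 (-0.56 to -0.42), and Neurog3, with 24 and 4 UMIs, no longer had enough to be called. With the limit on other hormones tightened to 0.3% of UMIs, an alternative chosen after the data were seen, Cd81 stood at -0.76, Pdyn at 0.72 and Cpb2 at -0.32.

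Levels of Cd81 in the other endocrine classes were close between the libraries. Alpha-like cells had 251 CPM of Cd81 in virgin and 248 in multipara cells (log2 ratio -0.02, -0.08 to 0.05). Delta-like cells had 298 and 308 (0.04, -0.08 to 0.17) and PP-like cells 255 and 263 (0.05, -0.14 to 0.23), so that in all 3 classes the interval includes 0 and lies apart from that of beta cells, and the difference between classes was not tested. Fxyd6 behaved otherwise, being lower also in alpha-like cells, at 89.2 and 57.0 (-0.65, -0.78 to -0.52), and in PP-like cells, at 35.8 and 16.9 (-1.08, -1.72 to -0.47), with 321 and 297 in delta-like cells (-0.11, -0.24 to 0.01). Pdyn was higher in multipara delta-like cells too, with 83 UMIs (21.6 CPM) against 141 (43.5 CPM), a log2 ratio of 1.01 (0.61 to 1.42). Neurog3 in delta-like cells was at 41.7 and 28.7 CPM (-0.54, -0.92 to -0.16).

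**Figure D2:**
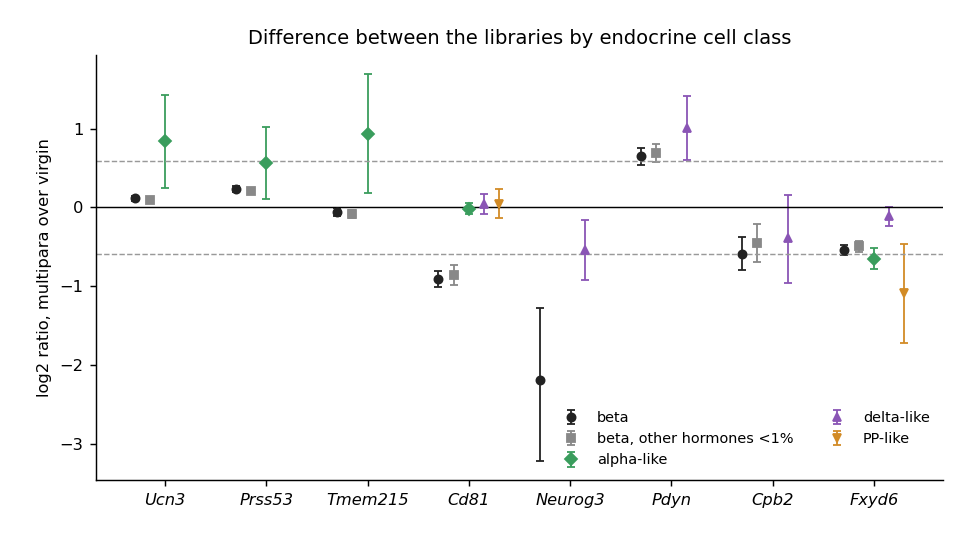
Log2 ratio, multipara over virgin, of each gene with at least 50 UMIs in a class, with exact 95% intervals, for all beta cells (black), single-hormone beta cells (grey) and 3 other endocrine classes; dashed lines mark 1.5-fold. Cd81 lies near -0.9 in beta cells and at 0 in alpha-like, delta-like and PP-like cells, whereas Fxyd6 is also low in alpha-like and PP-like cells and Pdyn is also high in delta-like cells.

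Among the 4 endocrine classes, the 3 maturity genes were highest in beta cells. Ucn3 in alpha-like cells was at 2.69 and 4.80 CPM, 86.5-fold and 52.4-fold below beta cells of the same library. Prss53 was 52.1-fold and 41.4-fold and Tmem215 77.3-fold and 39.0-fold above alpha-like cells. What remained in alpha-like cells was 1.16% and 1.91% of the beta cell level for Ucn3, 1.92% and 2.41% for Prss53 and 1.29% and 2.57% for Tmem215, next to 0.961% and 1.69% for Ins2. A UMI of Ucn3 was found in 4.32% and 7.61% of alpha-like cells, at median depths of 16370 and 17531 UMIs, and the source of these UMIs was not tested.

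The immaturity genes did not share a home. Pdyn was 79.5-fold and 33.3-fold and Cpb2 18.6-fold and 19.3-fold above alpha-like cells, Fxyd6 was within 1.5-fold of them (log2 0.05 and 0.16), and Cd81 was 6.03-fold and 11.2-fold lower in beta than in alpha-like cells. In both libraries 5 of the 7 genes with enough UMIs (Ucn3, Prss53, Tmem215, Pdyn and Cpb2) were above alpha-like cells and 1 (Cd81) below, against 9.25% and 29.7% of 11379 genes. Beta cell values are held down by the large insulin share of their UMIs. With hormone UMIs left out of the totals, 7 genes were past 1.5-fold, since Fxyd6 joined them.

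Delta-like cells, which make somatostatin, were where the progenitor genes were found. Neurog3 was in 32.1% of virgin and 24.3% of multipara delta-like cells, 36.5-fold and 114-fold above beta cells in CPM. Sox9 gave 91 and 42 UMIs there, in 14.3% and 9.21% of cells, 115-fold and 62.0-fold above beta cells. Aldh1a3 gave 31 and 50 UMIs, in 7.16% and 10.9% of cells, 18.8-fold and 35.1-fold above beta cells. PP-like cells held no UMI of Neurog3 or Aldh1a3, which for 82 and 88 cells allows up to 1.68 and 1.45 CPM at 3 counts. Pdyn was at 21.6 and 43.5 CPM in delta-like cells, within 1.5-fold of beta cells of the same library. Of the 10 genes, 6 (Cd81, Aldh1a3, Neurog3, Sox9, Cpb2 and Fxyd6) were at least 1.5-fold lower in beta than in delta-like cells in both libraries. The 3 maturity genes were at least 1.5-fold higher. Among all 11134 genes 61.4% were lower and 4.37% higher, so the 6 lower genes are near the share of all genes. Hormone UMIs were kept in these totals, and the large insulin share holds beta cell values down here too.

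**Figure D3:**
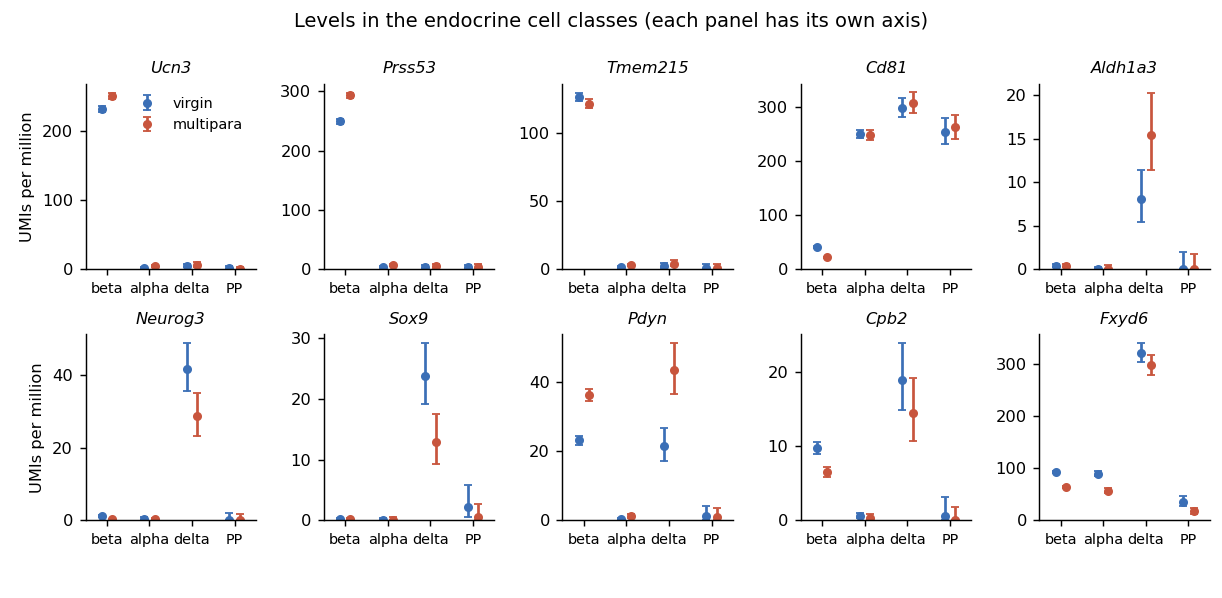
CPM of each gene in beta, alpha-like, delta-like and PP-like cells of the virgin (blue) and multipara (red) library, with exact 95% Poisson intervals and a separate linear axis in each panel. Ucn3, Prss53 and Tmem215 are highest in beta cells, Aldh1a3, Neurog3 and Sox9 in delta-like cells, and Cd81 is lowest in beta cells.

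Outside the endocrine cells Cd81 was more abundant still, at 1712 and 1528 CPM in endothelial-like cells and 1344 and 1409 in macrophage-like cells. The macrophage markers summed over beta cells were at 43.6 and 68.6 CPM and the endothelial markers at 8.26 and 9.58, both higher in the multipara library, where Cd81 was lower, and all 8 markers of each type were detected in both libraries. B cell markers, at 37.4 and 11.8 CPM, T cell markers, at 0.524 and 0.209, and mesenchymal markers, at 1.57 and 0.836, were lower in the multipara library, as Cd81 was. Of the 8 T cell markers 7 were detected in virgin and 4 in multipara beta cells, and of the 9 mesenchymal markers 8 and 7. The T cell marker Cd3e and mesenchymal marker Pdgfra were at 0 in beta cells of both libraries. Cd81 itself was at 210 and 243 CPM in B cell-like cells, and the part of these cell types in the result was not tested.

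To see whether genes of the same kind rose and fell together, beta cells were thinned to an equal number of UMIs and Pearson correlations of log2(UMIs + 1) were taken within a library. These describe cells that share a library, a dissociation and, for the most part, a high insulin share. At 4500 UMIs per cell (1704 virgin and 1430 multipara cells) the median correlation among the 3 maturity genes was 0.08 and 0.09, and between maturity and immaturity genes -0.04 and -0.06. Counts at that depth are too sparse to read anything from values of this size. At 20000 UMIs (1479 and 1239 cells), a depth chosen after the data were seen, the medians were 0.31 and 0.22 among maturity genes and -0.14 and -0.17 between the kinds.

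In single-hormone beta cells at 20000 UMIs (1376 virgin and 1190 multipara cells) the pattern stood, in smaller values, with medians of 0.23 and 0.16 among maturity genes and -0.08 and -0.14 between the kinds. The 3 maturity pairs lay between 0.20 and 0.26 in the virgin and between 0.14 and 0.18 in the multipara library. Cd81 was the gene most opposed to them, at -0.41 and -0.38 with Prss53, -0.28 and -0.30 with Ucn3 and -0.23 and -0.20 with Tmem215. The immaturity genes were not a single group. Cd81, Cpb2 and Fxyd6 went together, with 0.32 and 0.35 for Cd81 and Cpb2 and 0.22 and 0.30 for Cd81 and Fxyd6. Pdyn went with none of them beyond 0.08 in virgin and 0.15 in multipara cells.

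**Figure D4:**
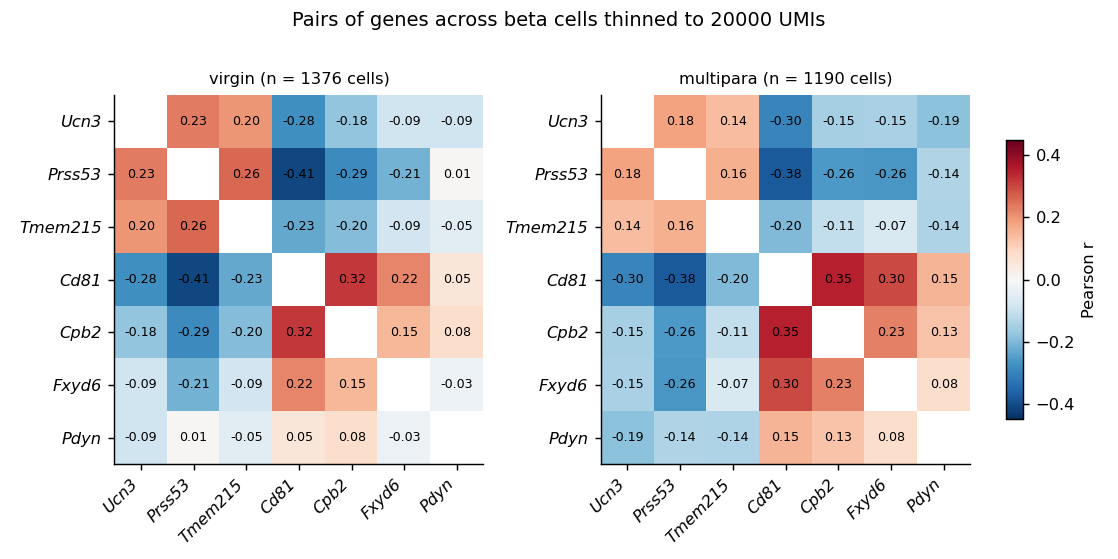
Pearson correlations of log2(UMIs + 1) between pairs of genes across single-hormone beta cells thinned to 20000 UMIs, for the virgin (left) and multipara (right) library. Ucn3, Prss53 and Tmem215 form a block of positive values and Cd81, Cpb2 and Fxyd6 another, with negative values between the blocks, and Pdyn stands apart.

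Correlations with the summed UMIs of the 3 maturity genes were taken at 20000 UMIs per cell, the depth chosen after the data were seen. Cd81 had the lowest of all 7504 genes found in at least 10% of thinned beta cells. It was at -0.61 in virgin and -0.57 in multipara cells, where the median gene was at -0.02 and -0.01. At 4500 UMIs Cd81, at -0.31 and -0.26, was in too few cells to be ranked. The lowest of 2740 genes there was Chga, at -0.35 and -0.23. Back at 20000 UMIs, Fxyd6 was at -0.28 and -0.33 and Pdyn at -0.14 and -0.26. Cpb2 was at -0.42 and -0.38 at that depth, in too few cells to be ranked. A correlation below 0 in both libraries was found for 50.1% of genes in all beta cells and for 33.6% of 7429 genes in single-hormone cells, so the sign alone says little. In single-hormone cells Cd81 was again the lowest, at -0.47 and -0.49, and it was at -0.41 and -0.44 in cells with under 0.3% of other hormones. Tspan8, another tetraspanin and one of the PP markers, came next at -0.44 and -0.46, followed by Tmem27, encoding a membrane protein, at -0.38 and -0.34. In these libraries Tmem27 was among the leading genes of the alpha-like and PP-like clusters, and Tspan8 among those of the PP-like, delta-like and mixed-hormone clusters.

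Cd81 was concentrated in the beta cells poorest in the 3 maturity genes. Of single-hormone beta cells with 20000 UMIs, 153 virgin cells (11.1%, 9.51 to 12.9) and 79 multipara cells (6.64%, 5.29 to 8.21) had 0 to 5 UMIs of Ucn3, Prss53 and Tmem215 together. In these cells Cd81 was at 140 (127 to 153) and 129 (112 to 148) CPM, and 66.0% and 64.6% of them had a UMI. In cells with 16 or more maturity UMIs (379 and 411 cells, 27.5% and 34.5%) it was at 13.6 (11.1 to 16.5) and 4.14 (2.86 to 5.78), and 13.5% and 4.87% had a UMI. With other hormones held under 0.3% of UMIs, the shares of maturity-poor cells were 8.35% (6.92 to 9.96) and 6.00% (4.72 to 7.51), whose intervals overlap, and Cd81 in maturity-rich cells was at 12.7 (10.2 to 15.6) and 4.18 (2.91 to 5.81) CPM. The intervals of Cd81 in maturity-poor cells overlapped between the libraries, and those in maturity-rich cells did not, under both limits. All these intervals cover counting error within 1 library each, so neither overlap nor its absence compares the groups. With other hormones under 1%, the multipara maturity-rich value rested on 34 UMIs of Cd81 in 20 cells.

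The same cells held more Cpb2, at 34.0 and 36.7 CPM against 3.43 and 3.77 in the maturity-rich cells. Fxyd6 was at 133 and 168 in maturity-poor against 73.7 and 52.6 in maturity-rich cells. Pdyn followed in the multipara library, where it was at 156 CPM (137 to 177) in maturity-poor and 18.7 (15.9 to 21.9) in maturity-rich cells, with a UMI in 36 of the 79 maturity-poor cells and at most 24 UMIs in any of them. In the virgin library Pdyn was at 31.7 (25.7 to 38.7) in maturity-poor and 13.2 (10.73 to 16.05) in maturity-rich cells. The difference between the libraries in Pdyn was thus widest among the maturity-poor cells, 31.7 against 156.

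**Figure D5:**
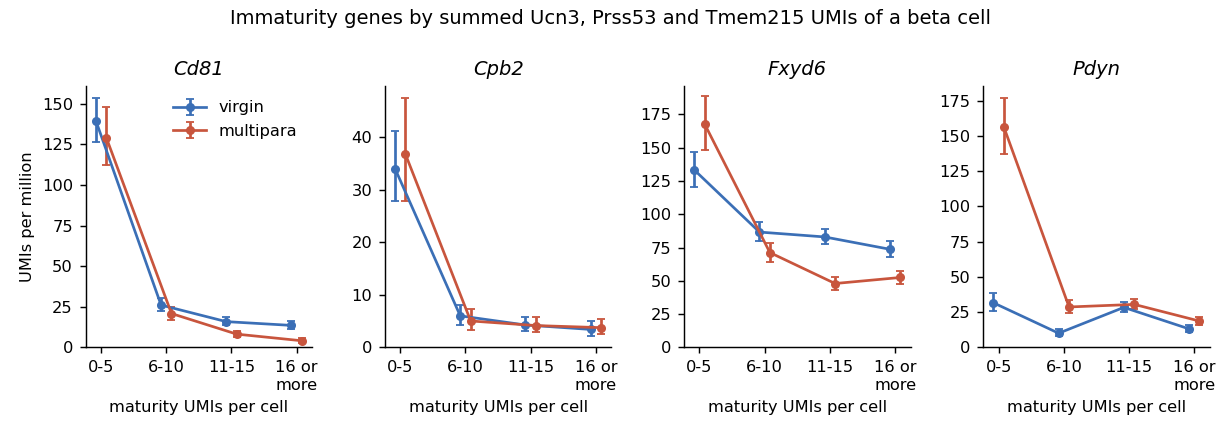
CPM of Cd81, Cpb2, Fxyd6 and Pdyn in single-hormone beta cells thinned to 20000 UMIs, by the summed UMIs of Ucn3, Prss53 and Tmem215 in the cell, for the virgin (blue) and multipara (red) library with exact 95% Poisson intervals. All 4 genes are highest at 0 to 5 maturity UMIs in the multipara library, and Pdyn there reaches 156 against 31.7 in the virgin library; the virgin Pdyn value at 11 to 15 includes 1 cell with 96 UMIs.

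All of these cells had at least 20% of insulin UMIs by the rule that chose them, so insulin is given as a description only. Ins1 and Ins2 made up a median of 58.0% of UMIs in them in virgin and 58.5% in multipara cells, against 56.3% and 57.6% in maturity-rich cells, and the co-secreted peptide gene Iapp was at 45284 and 47952 against 43785 and 43668 CPM. Gcg, Sst, Ppy and Pyy together were held under 1% of UMIs by the choice of single-hormone cells, so their levels too are a description only. Gcg was at 870 and 570 CPM in maturity-poor against 947 and 588 in maturity-rich cells, and Sst at 92.2 and 82.3 against 91.7 and 58.5. The hormones of PP cells were higher, Pyy (peptide YY) at 611 and 368 against 76.8 and 55.4 and Ppy (pancreatic polypeptide) at 459 and 348 against 229 and 213, as was Chga, the granule protein chromogranin A, at 10847 and 9496 against 6182 and 5545. The mitochondrial share moved with maturity, from a median of 3.04% and 3.12% of UMIs in maturity-poor to 5.13% and 4.73% in maturity-rich cells, and its part in the result was not tested. Most of the maturity-poor cells, 137 of 153 and 68 of 79, lay in beta-like clusters. A further 10 and 11 lay in mixed-hormone or delta-like clusters, against 1 and 1 of the 379 and 411 maturity-rich cells. The delta marker Rbp4 was at 207 and 101 CPM in maturity-poor against 8.71 and 9.73 in maturity-rich cells. Tspan8, a PP marker, was at 67.0 and 64.6 against 5.28 and 3.28. Both Tspan8 and Pyy were also among the leading genes of the delta-like cluster. The part of these other cell types in the result was not tested.

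Detection of the immaturity genes overlapped in single cells. Cpb2 was found in 66 of the 299 virgin single-hormone cells with a UMI of Cd81 (22.1%, 17.5 to 27.2) and in 6.41% (5.02 to 8.04) of those without. In the multipara library the shares were 45 of 151 (29.8%, 22.6 to 37.8) and 5.29% (4.01 to 6.83). Of the 15 virgin single-hormone cells with a UMI of Neurog3, 12 had a UMI of Cd81 and all 15 a UMI of Fxyd6, whereas Fxyd6 was found in 75.02% of cells without Neurog3. Aldh1a3 met Pdyn, in that 4 of 6 virgin and 5 of 8 multipara cells with a UMI of Aldh1a3 also had Pdyn, against 12.8% and 19.9% of the cells without Aldh1a3. Counts of this size have wide intervals, 22.3% to 95.7% and 24.5% to 91.5%.

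The 5 genes most alike to each member were taken by the lower of its correlations in both libraries. At 4500 UMIs in all beta cells, the closest gene was Ftl1, a ferritin chain, for Ucn3 (0.22 and 0.19), Ero1lb for Prss53 (0.16 and 0.14), Slc30a8 for Tmem215 (0.10 and 0.08), Pyy for Cd81 (0.41 and 0.35), Gpx3 for Pdyn (0.16 and 0.15) and Chga for Fxyd6 (0.19 and 0.24), and Cpb2 was in too few cells to enter. Most of these values are small, and the deeper thinning of single-hormone cells, chosen after the data were seen, gave larger ones. There, for Prss53 the closest gene was Mafa, the transcription factor that drives mature insulin expression, with 0.41 in virgin and 0.33 in multipara cells among 7431 genes, followed by Ero1lb (0.28 and 0.29), an oxidase of disulphide formation in the endoplasmic reticulum, and Prlr (0.28 and 0.26), the prolactin receptor. For Tmem215 it was also Mafa (0.25 and 0.20). For Ucn3 it was again Ftl1 (0.36 and 0.29), followed by 4 mitochondrially encoded genes. With second-hormone cells kept, Mafa led at 20000 UMIs (0.35 and 0.30) and no mitochondrial gene was among the 5, whereas at 4500 UMIs the 4 genes after Ftl1 were mitochondrial (mt-Co2, mt-Nd4, mt-Atp6 and mt-Co3).

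For Cd81 the closest genes were Tspan8 (0.40 and 0.40), Tmem27 (0.37 and 0.36), Rbp4, a retinol carrier that is also a delta marker (0.40 and 0.30), and Chga (0.41 and 0.29). Cpb2 had Cd81 itself as its closest gene (0.32 and 0.35), and Fxyd6 had Chga (0.24 and 0.37). Pdyn was closest to Cpe (0.22 and 0.23), a carboxypeptidase that trims prohormones, and to Sdf2l1 (0.23 and 0.21), a folding protein of the endoplasmic reticulum. Gng12 (0.22 and 0.21), Dapl1 (0.20 and 0.23) and Fkbp11 (0.20 and 0.21), another such folding protein, followed. These likenesses are of modest size and describe cells within these libraries.

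A list of 12 further genes of mature beta cells and one of 12 further genes of immature or disallowed expression gave the wider pattern. Between the libraries none of the 12 maturity genes reached 1.5-fold, with a median log2 ratio of -0.07, where 1.88% of all genes were that much higher and 5.49% lower and the median gene was at -0.10. Mafa was at 318 and 333 CPM (0.07) and Ero1lb at 546 and 644 (0.24), whereas the zinc transporter gene Slc30a8 was at 501 and 358 (-0.49) and the glucose transporter gene Slc2a2 at 279 and 208 (-0.43). Of the 12 immaturity genes 6 had enough UMIs. Gc, the vitamin D binding protein, was at 10.3 and 3.95 CPM (-1.38) and Rbp4 at 119 and 69.9 (-0.77). The growth regulator Myc was at 2.23 and 1.32 (-0.76) and Fev, a transcription factor of endocrine precursors, at 0.843 and 0.376 (-1.16). All 4 were at least 1.5-fold lower. Gc is also one of the alpha markers summed above and Rbp4 one of the delta markers. In alpha-like cells Gc was at 162 and 148 CPM and Fev at 28.6 and 27.3. Rbp4 was at 5206 and 5705 in delta-like cells. The part of such cells in these differences was not tested. Npy, neuropeptide Y, was at 14.9 and 23.1 (0.63) and higher. Gast, Cck, Ldha, Slc16a1, Hk1 and Pax4 had too few UMIs, Pax4 none. In single-hormone cells 5 had enough, and 3 of them (Gc, Rbp4 and Myc) were at least 1.5-fold lower and none higher, against 4.65% and 2.03% of all genes, with Npy standing at 0.40.

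The 344 virgin and 297 multipara single-hormone cells with the lowest maturity sums were set against as many with the highest. Of 11 further maturity genes with enough UMIs, 11 were lower in the lowest cells in virgin and 9 in multipara cells. The median of all genes had a log2 ratio of -0.03 in virgin and 0 in multipara cells, so being lower says little by itself. By at least 1.5-fold, 4 and 3 of the 11 were lower, against 4.11% and 2.84% of 8861 and 8369 genes. Mafa gave 1444 against 2642 UMIs in the virgin library (-0.87) and 1456 against 2342 in the multipara library (-0.69). Trpm5, a cation channel gene, came to -0.78 and -0.56, Sytl4, encoding the granule protein granuphilin, to -0.79 and -0.81, and Slc2a2 to -0.59 and -0.60. Pdx1, the factor that specifies the pancreas, did not follow, with -0.06 and 0.14, nor did Neurod1, with -0.11 and 0.00.

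Of the immaturity list, Rbp4 stood out with 833 against 59 UMIs in the virgin library (3.82, 3.44 to 4.23) and 362 against 55 in the multipara library (2.72, 2.31 to 3.16). Npy gave 72 against 90 (-0.32, -0.79 to 0.14) and 62 against 77 (-0.31, -0.82 to 0.19). Rbp4 was thus at least 1.5-fold higher in the lowest cells of both libraries, as were 3.77% (virgin) and 3.82% (multipara) of all genes, and Npy was not. The lowest and highest cells were picked by the 3 maturity genes, which correlate with these lists, so the counts describe the same axis rather than a separate result.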

How the data were processed

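Values in the deposited files are unnormalised UMI counts for every gene in every barcode, output of Cell Ranger (version 3.1.0 in the file headers and the submitters' processing notes). Those notes also name Seurat 3.0 and the builds GRCm38 and mm10. The filter of the study was applied (over 200 genes, under 6000; below 60000 UMIs; mitochondrial share below 10%). Doublets were called within each library with Scrublet (scanpy 1.11.5) and removed (79 virgin and 18 multipara cells, or 1.80% and 0.533%, against prior rates of 3.51% and 2.70%), so some can remain. Both libraries were clustered together without integration (Leiden, resolution 1, 20 neighbours, 30 components of 2000 genes; leidenalg 0.10.2, igraph 0.11.9), and clusters were named by marker genes among their 50 leading genes.

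Counts were summed over cells of a class and scaled to 1000000 UMIs (CPM). Intervals are exact 95% Poisson, Clopper-Pearson or conditional binomial intervals. A call needed 50 UMIs and a 1.5-fold difference. No test between groups was run, since cells are not replicates. Cells were thinned without replacement, and those with fewer UMIs were left out (117 virgin and 155 multipara cells at 4500 UMIs, 342 and 346 at 20000). Likeness used genes in at least 10% of thinned cells and members in at least 5%. All 10 members were named, and of the further lists those past 1.5-fold and examples beside them. The values of some listed genes are not reported here. Ratios, intervals, thinning and correlations were tested on simulated data. The members, lists and rules were chosen with earlier results of these data known. TMM used edgeR 4.0.16. Gene positions are from GENCODE M21, promoter windows from RefSeq GRCm38.p6.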

Additional observations from a re-analysis of the deposited data

Results flagged for a closer look

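Tmem215 differed in direction between beta and alpha-like cells. Its log2 ratio, multipara over virgin, was -0.06 (-0.11 to -0.01) in beta cells and 0.93 (0.18 to 1.69) in alpha-like cells, where it rested on 28 virgin and 37 multipara UMIs. The difference between the classes was not tested. Beside it, the level of Tmem215 in alpha-like cells was 1.29% and 2.57% of that in beta cells, and the level of Ins2 0.961% and 1.69%, both higher in the multipara library.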

How the results depend on the processing

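Across 13 alternatives, Cd81 stayed lower (-0.99 to -0.57), Neurog3 lower (-2.47 to -1.21), Cpb2 lower (-0.75 to -0.32), Fxyd6 lower (-0.60 to -0.43), and Pdyn (0.62 to 0.78), Prss53 (0.18 to 0.34) and Ucn3 (0.03 to 0.22) higher in the multipara library on the log2 scale. Tmem215 ran from -0.15 to 0.05, Aldh1a3 from -0.33 to 0.96 and Sox9 from -0.91 to 0.35. TMM and median-of-ratios scaling moved the median of all genes from -0.10 to 0.00 and 0.01. With each cell weighted equally Cd81 came to -0.57, just short of 1.5-fold, and Fxyd6 to -0.60, past it. The number of genes past 1.5-fold was 4. It was 3 with TMM or median-of-ratios scaling, with UMIs other than insulin and with insulin cuts of 10% or 30%, where Cpb2 (-0.54 to -0.48) fell short, and 2 in beta cells with other hormones under 1% or under 0.3% and in cells of beta-like clusters. The 6 past 1.5-fold against alpha-like cells were 6 or 7 under every alternative.

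The median correlation among the maturity genes, 0.075 in virgin and 0.093 in multipara cells, was 0.286 and 0.265 in unthinned cells, 0.310 and 0.222 at 20000 UMIs and 0.232 and 0.162 there with other hormones under 1%. That with the other members, -0.042 and -0.057, was -0.124 in unthinned virgin cells, -0.145 and -0.165 at 20000 UMIs and -0.140 there in multipara cells with other hormones under 1%. These values moved with the depth kept per cell, and their direction held in every alternative. No paired analysis was possible because each group had 1 library, and for the same reason no library could be left out. With 50 UMIs needed for a call, Aldh1a3 and Sox9 cannot be read in beta cells at this depth. Thinning to 20000 UMIs and the 0.3% limit were chosen after seeing the data.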
